A study of Mus musculus with 12 samples.

Results

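Trametinib, an inhibitor of the kinases MEK1 and MEK2, was added to cediranib, an inhibitor of the VEGF receptor kinases, in mice bearing SVR tumors, and the question was which transcripts that addition changed. The comparison was of the 3 tumors treated with Trametinib and Cediranib (the combination group) against the 3 tumors treated with Cediranib alone. Its members were the genes with enough reads to test, 12897 of the 54232 genes in the count table, of which 29102 had at least 1 read in some library and 11120 of those tested were protein coding. The rule for choosing them used read depth over all 12 libraries and compared no groups. It asked for enough reads in at least 3 libraries, the size of 1 group. A gene could therefore be tested on the reads of the group where it was high.

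SVR is a mouse endothelial cell line transformed with activated H-ras, which every group shared, and it forms angiosarcoma, the malignancy of vessel-lining cells. The cells had been injected under the skin of athymic nude mice 8 to 12 weeks old, and tumors grew for 3 to 7 days before daily dosing by mouth began. Doses were 3 mg/kg cediranib in the cediranib group, 1 mg/kg trametinib with 3 mg/kg cediranib in the combination group, 1 mg/kg trametinib in a trametinib group, and the drug carrier (Vehicle) in a control group, with 3 tumors in each. Such mice lack mature T cells and keep other immune cells. The labels give the strain as C57BL/6, and the methods describe nude mice. Tumor cells and host cells are both mouse, so a transcript of the tumor cannot be told apart from one of the vessels, skin or muscle around it. All tumors came from 1 line, the labels do not tie them to separate experiments, and the number of days on treatment was not given per tumor and may differ between groups. The p-values measure the spread between the numbered tumors of a group.

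In the pathway that trametinib blocks, growth factor receptors activate RAS, RAS activates RAF kinases, RAF activates MEK, and MEK activates ERK. Active ERK turns on a fast set of transcription factors, and it also turns on its own brakes, the dual-specificity phosphatases that strip phosphate from ERK and the Sprouty and Spred proteins that act on RAS and RAF. The VEGF receptors, which cediranib blocks, signal in endothelial cells partly through the same kinases.

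Library totals ranged from 9478865 to 11666094 counts over the 12 libraries, and from 9584701 to 11229163 over the 6 compared here. Levels are given as normalized counts per 1000000 (CPM), where 3 counts per library, the floor used for an absent transcript, correspond to 0.272 to 0.303 CPM in these 6 libraries. One library stood apart: in cediranib tumor 2 the summed level of 37 tested keratins was 116 CPM, against 5406 and 3772 CPM in the other cediranib tumors and 4925, 7160 and 5564 CPM in the combination tumors. Control tumors held 119 to 852 CPM of keratin and trametinib tumors 59.8 to 91.2 CPM. Skeletal muscle markers summed to 22097 CPM in control tumor 2, against 709 and 129 CPM in the other control tumors. In trametinib tumor 2 they summed to 34164 CPM, against 486 and 2899 CPM in the other trametinib tumors. Red cell markers summed to 1794 CPM in control tumor 3, against 261 and 75.7 CPM in the other control tumors.

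A gene was called changed when its false discovery rate (FDR, the Benjamini-Hochberg adjusted p of edgeR's quasi-likelihood test) was below 0.05 and its log2 fold change was at least 1.5 in size. By this rule 316 genes changed when trametinib was added, 2.45% of those tested, and 288 of them were protein coding. There were 166 genes with higher expression (1.29%) and 150 with lower expression (1.16%), with median log2 fold changes of 2.03 and -2.05. In 90 of the former and 82 of the latter the change exceeded a log2 value of 2, and in 30 and 34 it exceeded 3. The median over all tested genes was 0.00428. Counts of called genes in the lists below are to be read against the 1.29% higher and 1.16% lower. The values of the combination and cediranib tumors did not overlap for 315 of the 316 called genes, the exception being Ndufa4l2, named here after its values were seen. Ndufa4l2 (2.50, edgeR FDR = 0.0408) stood at 2.40, 1.61 and 4.31 CPM and at 15.0, 28.2 and 3.99 CPM, and it was not called without any 1 of the libraries other than combination tumor 3 (1.78 to 2.97). Over all genes, 14.1% did not overlap with the combination higher and 14.3% with it lower. Among the genes with higher expression, 9 were Ugt1a genes, which share most of their exons. Their rows held nearly the same reads, with log2 fold changes from 1.68 to 1.75, so these 9 calls stand for one locus.

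A loss was seen in genes that ERK switches on. Over 5 lists of such genes, 56 of 61 listed genes were tested, 17 fell and 2 rose, so that 30.4% were called lower against 1.16% of all genes. The median log2 fold change of the 56 was -0.63. These lists were written with earlier results of these data known, and their counts are a description of the pathway.

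The phosphatases that shut off MAP kinases fell together in part: 4 of 10 tested were called lower, none higher, and the list's median was -1.24. Dusp6, which acts on ERK in the cytoplasm, measured 41.4, 43.6 and 43.1 CPM in the cediranib tumors and 13.9, 11.3 and 10.2 CPM in the combination tumors. That was a log2 fold change of -1.85 ± 0.22 (SE, n = 3 per group, edgeR FDR = 0.00117), with all 3 combination tumors well under the narrow range of the cediranib tumors. Dusp5, a nuclear ERK phosphatase, went from 41.9, 54.4 and 77.6 CPM to 10.9, 9.99 and 12.5 CPM (-2.38 ± 0.30, edgeR FDR = 0.00142). Dusp4, also nuclear, went from 32.9, 37.7 and 29.8 CPM to 3.13, 5.17 and 7.24 CPM (-2.68 ± 0.46, edgeR FDR = 0.00665). In neither gene did the groups overlap. The fourth, Dusp9, was near the floor in the combination tumors at 0.278 to 1.01 CPM against 2.20 to 3.92 CPM, and its call (-1.94, edgeR FDR = 0.0382) was lost without any 1 of the 6 libraries, with values from -1.55 to -2.22 and edgeR FDR from 0.0607 to 0.111. Dusp1, Dusp8 and Dusp16 had log2 fold changes of 0.67, 0.89 and 0.68 and were not called. Dusp2 was at -2.30 with edgeR FDR = 0.158.

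The Sprouty and Spred inhibitors did not move as a block. Of 6 tested, 1 fell and 1 rose, with a median of -0.35. Spry4 stood at 5.30, 4.63 and 4.78 CPM with cediranib and at 1.51, 1.72 and 0.743 CPM with the combination (-1.88 ± 0.32, edgeR FDR = 0.00665), so every combination tumor was lower. Spry2, by contrast, measured 162, 183 and 282 CPM against 181, 116 and 331 CPM, a log2 fold change of 0.00 ± 0.36 (edgeR FDR = 0.997) whose sign depended on the setting. Spry3 rose from 2.7, 5.96 and 1.05 CPM to 13.6, 19.4 and 6.13 CPM (2.01, edgeR FDR = 0.0458). That call was lost without cediranib tumor 1 (1.89), cediranib tumor 3 (1.59), combination tumor 1 (1.98) or combination tumor 2 (1.61).

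The transcription factors that ERK controls include the PEA3 group of ETS proteins, in which 2 of 3 fell, and the immediate early genes. Egr1, the zinc finger factor induced within minutes by growth factors, measured 57.3, 80.7 and 73.0 CPM in the cediranib tumors and 10.2, 7.17 and 10.6 CPM in the combination tumors. Its log2 fold change of -2.92 ± 0.21 (edgeR FDR = 0.00011) was far outside the spread within either group. Egr2 went from 25, 43.4 and 51.8 CPM to 3.23, 12.2 and 11.7 CPM (-2.14 ± 0.40, edgeR FDR = 0.00888). Etv5 went from 56.4, 79.6 and 44.7 CPM to 16.1, 21.1 and 14.0 CPM (-1.82 ± 0.25, edgeR FDR = 0.00206). Etv4 went from 92.4, 71.8 and 116 CPM to 29.8, 36.5 and 25.7 CPM (-1.61 ± 0.22, edgeR FDR = 0.00195), a fall that slipped just under the fold threshold without cediranib tumor 3 (-1.41) or combination tumor 3 (-1.5). The third PEA3 factor, Etv1, did not follow them. It stood at 13.0, 48.6 and 14.3 CPM with cediranib and 11.4, 60.3 and 22.2 CPM with the combination (0.31 ± 0.61, edgeR FDR = 0.806), and 1 tumor in each group held most of it.

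Of the 21 immediate early genes tested, 4 fell and 1 rose, and the median was -0.40 (-0.20 without cediranib tumor 2). Besides Egr1 and Egr2, the genes that fell were Fosl1, the AP-1 subunit FRA1, and Egr3, which is named here because it completes the count. Fosl1 was low throughout, at 5.60, 5.11 and 3.35 CPM against 1.31, 2.27 and 0.650 CPM (-1.72, edgeR FDR = 0.0328), and it was not called without cediranib tumor 1 (-1.57), cediranib tumor 2 (-1.65), combination tumor 1 (-1.66) or combination tumor 3 (-1.37). Egr3 went from 42.1, 45.9 and 92.9 CPM to 22, 15.8 and 19.0 CPM (-1.67, edgeR FDR = 0.0451), a call lost without any 1 of the 6 libraries, with values from -1.21 to -1.87, or when a score of epidermal markers was fitted (-1.77). The one that rose was Klf4, a Krüppel-like factor linked to growth arrest and to epithelial differentiation, from 21, 13.5 and 26.1 CPM to 60.5, 65.5 and 92.3 CPM (1.85 ± 0.32, edgeR FDR = 0.00646). Klf4 is also expressed in epidermis, and its value was 1.43 with a score of epidermal markers in the model. The log2 fold changes of Fos, Jun and Junb were -0.23, -0.19 and -0.50, and none of the 3 was called. Myc, the growth factor-responsive driver of cell growth, went from 32.1, 31.4 and 39.3 CPM to 19.2, 17.2 and 17.6 CPM, passing the FDR (0.00869 by edgeR) with a log2 fold change of -0.93 that was smaller than the fold threshold.

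Of 16 other ERK-dependent genes, 6 fell and none rose, with a median of -0.96. Ccnd1, which encodes cyclin D1 and links ERK to the cell cycle, measured 123, 94.8 and 118 CPM with cediranib and 32.9, 29.7 and 35.2 CPM with the combination (-1.78 ± 0.16, edgeR FDR = 0.000202). Phlda1, a pleckstrin homology-domain protein, went from 46.4, 57.1 and 57.3 CPM to 14.7, 11.6 and 11.9 CPM (-2.07 ± 0.20, edgeR FDR = 0.000311). The antisense gene Gm28592 overlaps it. The groups lay far apart in both. EGF receptor ligands were in the count. Tgfa went from 9.89, 8.80 and 7.08 CPM to 2.22, 2.00 and 2.78 CPM (-1.87 ± 0.28, edgeR FDR = 0.00364), and Hbegf, named to complete the count, had a log2 fold change of -1.99 (edgeR FDR = 0.00639). Plaur, the urokinase receptor, had a log2 fold change of -2.07 (edgeR FDR = 0.0212) at levels of 3.44 to 4.35 CPM against 0.278 to 1.41 CPM. It was not called without cediranib tumor 1 (-2.02), cediranib tumor 2 (-2.01) or combination tumor 2 (-2.25). Hmga2, a chromatin protein of high level here at 573, 392 and 507 CPM, stood at 160, 181 and 171 CPM with the combination. Its log2 fold change of -1.52 lay at the threshold, and without cediranib tumor 1 (-1.40), cediranib tumor 3 (-1.49) or combination tumor 1 (-1.47) it was just under it.

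**Figure D1:**
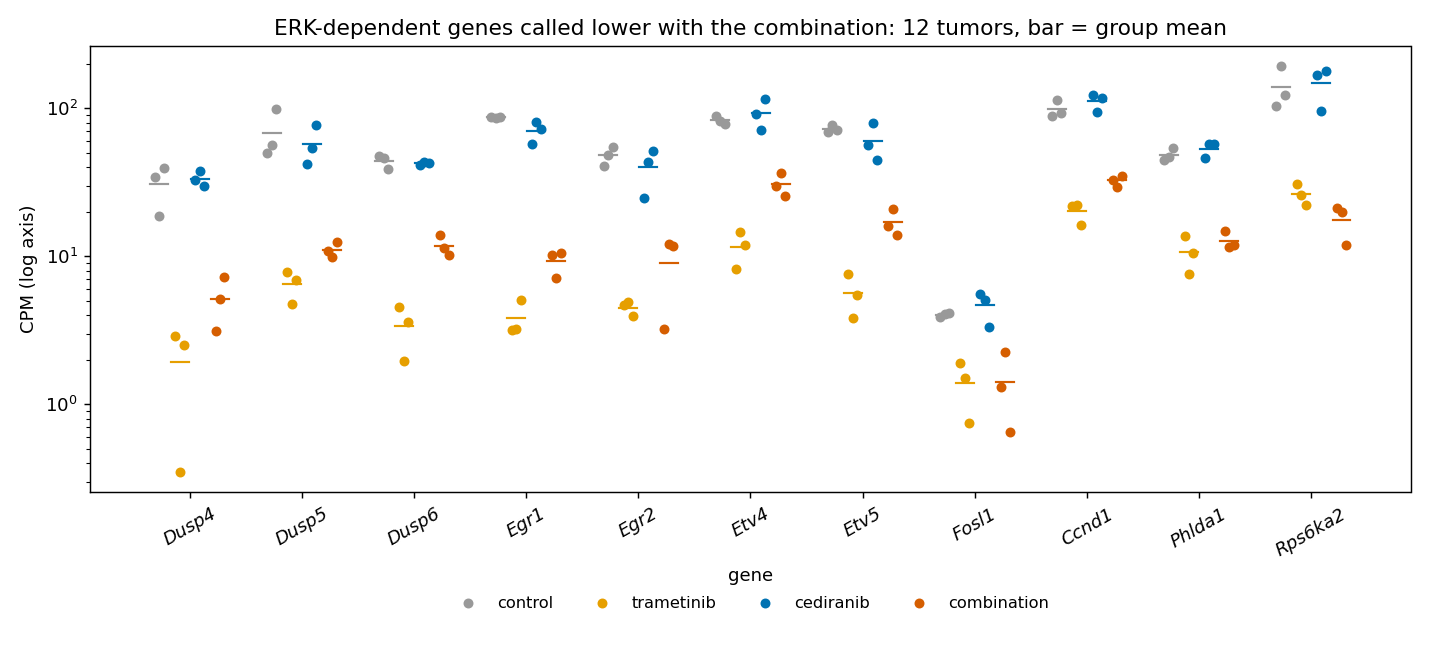
CPM on a log axis (y) of 11 ERK-dependent genes (x) that were called lower with the combination, where each point is 1 tumor, each bar a group mean, and colors mark the 4 groups of 3 tumors. For Dusp6 the cediranib tumors sit at 41.4 to 43.6 CPM and the combination tumors at 10.2 to 13.9 CPM, above the trametinib tumors at 1.98 to 4.54 CPM.

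RefSeq promoter sequences (build GRCm38.p6, 250 bases before to 50 bases after the gene's start) were searched for 4 motifs that bind transcription factors downstream of ERK or of other growth factor signals. The motifs were TGANTCA for AP-1, CCGGAAG for ETS proteins, TGACGTCA for CREB family factors and the CArG box of serum response factor, each on both strands and matches to different motifs did not overlap. Of the 12885 gene names tested, 8817 had an entry, and 7 of the 17 ERK-dependent genes that fell were among them. The motifs were found in 4.93%, 18.2%, 3.12% and 1.38% of all 8817 promoters, in the order given. Of the 7 promoters, 1 held an AP-1 match (Plaur), 1 held CArG boxes (Dusp5), and none held the ETS or the CREB motif. The Dusp5 promoter, shown first, had 2 CArG boxes that began 82 and 72 bases before the start. Plaur is shown for its AP-1 match, 69 bases before the start, and Dusp6 and Etv5 are shown as a feedback gene and an ETS gene that fell and in which these letters did not occur. Capitals mark the matches, and each sequence is given 5′ to 3′ on the gene's strand.
Dusp5, chr19:53528895-53529194, plus strand: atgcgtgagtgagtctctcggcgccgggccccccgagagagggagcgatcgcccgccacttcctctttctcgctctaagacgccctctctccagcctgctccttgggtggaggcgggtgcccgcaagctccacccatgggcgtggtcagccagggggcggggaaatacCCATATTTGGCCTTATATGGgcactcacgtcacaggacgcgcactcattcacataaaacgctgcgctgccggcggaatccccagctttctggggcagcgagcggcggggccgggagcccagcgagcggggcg
Plaur, chr7:24462233-24462532, plus strand: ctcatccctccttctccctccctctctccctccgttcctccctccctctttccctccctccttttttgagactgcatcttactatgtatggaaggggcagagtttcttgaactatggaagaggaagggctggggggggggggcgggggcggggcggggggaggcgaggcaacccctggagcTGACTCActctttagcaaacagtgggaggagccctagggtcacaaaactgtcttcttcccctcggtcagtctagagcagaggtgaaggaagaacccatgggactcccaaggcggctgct
Dusp6, chr10:99262981-99263280, plus strand: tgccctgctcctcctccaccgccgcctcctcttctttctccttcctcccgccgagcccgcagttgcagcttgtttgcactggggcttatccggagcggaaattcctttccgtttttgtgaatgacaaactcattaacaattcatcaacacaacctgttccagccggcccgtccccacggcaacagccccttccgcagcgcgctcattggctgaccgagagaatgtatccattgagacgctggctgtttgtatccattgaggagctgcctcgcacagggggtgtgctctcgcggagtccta
Etv5, chr16:22439521-22439820, minus strand: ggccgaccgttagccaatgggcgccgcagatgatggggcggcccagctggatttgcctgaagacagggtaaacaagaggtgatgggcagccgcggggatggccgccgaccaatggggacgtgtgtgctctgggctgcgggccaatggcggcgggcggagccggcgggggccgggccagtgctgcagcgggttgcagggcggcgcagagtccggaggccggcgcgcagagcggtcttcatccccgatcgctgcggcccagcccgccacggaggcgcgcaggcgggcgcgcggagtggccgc

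Among the 88 promoters of all genes called lower, 5.68% held the AP-1 motif and 5.68% the ETS motif, and among the 119 promoters of genes called higher the shares were 5.88% and 5.88%. A match is a string of letters and was not tested for binding.

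The RAF, MEK and ERK kinases themselves were not called. Map2k1 and Map2k2, which encode the MEK proteins that trametinib binds, had log2 fold changes of -0.26 ± 0.20 (edgeR FDR = 0.474) and 0.22 ± 0.13 (edgeR FDR = 0.356). Mapk3, which encodes ERK1, was at 0.03 ± 0.14 (edgeR FDR = 0.92), and Hras was at -0.54. Of 20 genes of the RAS-ERK cascade, 1 was called lower and none higher, with a median of -0.08. It was Rps6ka2, which encodes the ERK-activated kinase RSK3. Its level was 169, 96.3 and 178 CPM in the cediranib tumors and 21.2, 19.9 and 11.9 CPM in the combination tumors (-3.07 ± 0.31, edgeR FDR = 0.000384). Under the fold threshold, Ksr1 (1.47, edgeR FDR = 0.00192) and Rasa1 (-0.73, edgeR FDR = 0.0228) passed the FDR. With library totals alone, with a score of epidermal markers in the model, or without cediranib tumor 2 or combination tumor 1, 1 gene of the list was called higher.

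**Figure D2:**
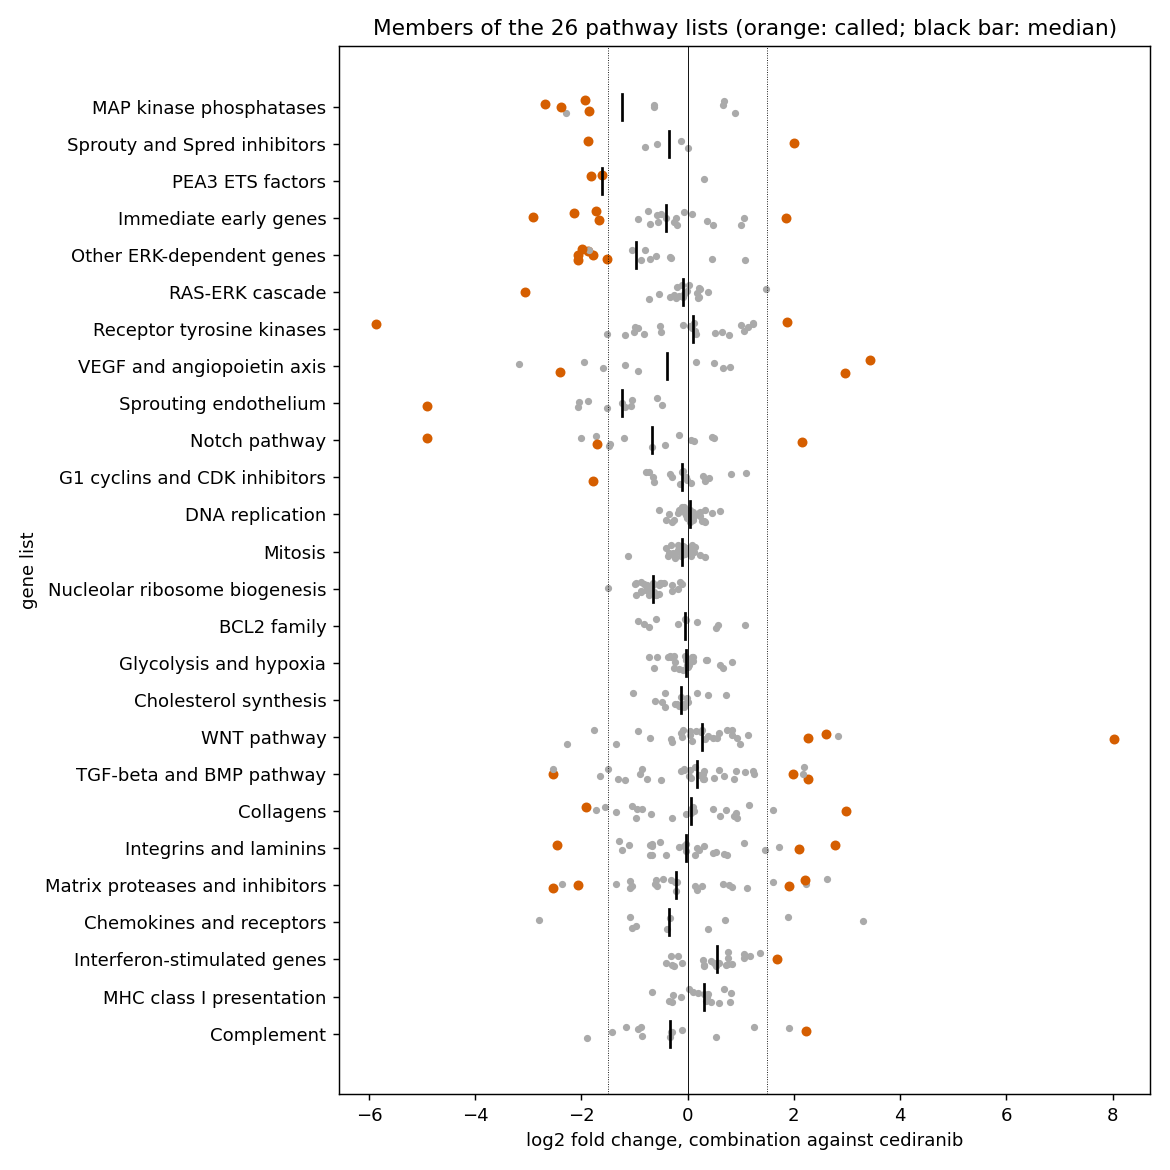
Log2 fold change of the combination against cediranib (x) for each tested member of the 26 pathway lists (y), with called genes in orange, other genes in gray, list medians as black bars and the fold threshold of 1.5 as dotted lines. The MAP kinase phosphatases and the other ERK-dependent genes are shifted to the left with medians of -1.24 and -0.96, while DNA replication genes sit around 0.04.

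Receptor tyrosine kinases, which lie above RAS, included 1 gene that fell and 1 that rose among 24 tested, with a median of 0.10. Ntrk3, the neurotrophin-3 receptor, measured 21.7, 18.0 and 110 CPM with cediranib and 0, 0.817 and 1.67 CPM with the combination (-5.87 ± 1.01, edgeR FDR = 0.00659). Erbb2, the partner of the EGF family receptors, rose from 2.60, 4.54 and 9 CPM to 18.1, 22.2 and 18.8 CPM (1.87 ± 0.36, edgeR FDR = 0.0102). Fgfr2 had a log2 fold change of 1.13 (edgeR FDR = 0.107) and of 0.75 without cediranib tumor 2, with cediranib tumor 2 at 4.63 CPM and the other cediranib tumors at 15.2 and 15.4 CPM.

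Of the ligands and receptors of vessel growth, 2 of 12 rose and 1 fell. Vegfd, a ligand of the lymphatic receptor VEGFR3, went from 0.500, 0.378 and 0.574 CPM, close to the floor, to 7.37, 4.54 and 4.08 CPM (3.43 ± 0.47, edgeR FDR = 0.00206). Angpt1, the ligand that activates the TIE2 receptor, went from 3.30, 14.1 and 4.69 CPM to 52.8, 80.6 and 40.5 CPM (2.97 ± 0.63, edgeR FDR = 0.0166). In both, each combination tumor was above each cediranib tumor. Angpt1 was not called without cediranib tumor 1 (2.62), cediranib tumor 3 (2.74) or combination tumor 2 (2.67), where edgeR FDR lay between 0.0512 and 0.0634. Vegfa and Vegfb were at 0.16 and 0.50. Vegfc was at -3.18 with every combination tumor lower, and it did not pass the FDR (edgeR FDR = 0.0601). On the receptor side, Tie1, the endothelial partner of TIE2, went from 190, 159 and 60.7 CPM to 37.0, 14.8 and 26.3 CPM (-2.39 ± 0.51, edgeR FDR = 0.0166), and it was not called without cediranib tumor 1 (-2.08), combination tumor 2 (-2.10) or combination tumor 3 (-2.40). The VEGF receptors that cediranib targets had negative values that did not pass. Kdr (VEGFR2) went from 5.70, 11.7 and 3.64 CPM to 2.42, 2.45 and 2.13 CPM (-1.58 ± 0.56, edgeR FDR = 0.109). Flt1 (VEGFR1) was at -0.94 (edgeR FDR = 0.119) and Flt4 (VEGFR3) at -1.94 (edgeR FDR = 0.109). Without cediranib tumor 2 Kdr was at -0.99 and Flt4 at -1.14, and with the epidermal score they were at -0.71 and -0.93, while DESeq2 called both lower and the likelihood ratio test called Flt4.

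Endothelial identity genes included 4 that fell in the combination tumors. The SVR line is of endothelial origin, and 16 of 20 endothelial markers were tested. None rose, and the median was -1.26. The 4 were Tie1 and 3 genes named to complete the count: the vessel adhesion molecule Pecam1 (-2.86, edgeR FDR = 0.00665), the vessel transcription factor Sox18 (-3.22, edgeR FDR = 0.0407) and the junction cadherin Cdh5 (-1.89, edgeR FDR = 0.0474). Pecam1 itself was low for tumors of this lineage, at 3.90, 5.01 and 2.39 CPM with cediranib and 0.909, 0.272 and 0.371 CPM with the combination, while Cdh5 was at 52.4, 79.6 and 26 CPM and 15.9, 6.90 and 19.9 CPM. Summed over the list, the markers reached 438, 484 and 198 CPM with cediranib and 160, 122 and 180 CPM with the combination. In bulk tissue, fewer cells of a type and less RNA per cell cannot be told apart. The calls were few and sensitive to single tumors. The number called lower was 1 without cediranib tumor 1 or combination tumor 2, 2 without cediranib tumor 2, combination tumor 1 or combination tumor 3, and 5 without cediranib tumor 3. Sox18 (-2.29 to -3.40) and Cdh5 (-1.46 to -2.21) were lost in each of the first 5 of these fits, and Pecam1 was called in all 6. With a score of epidermal markers in the model 2 were called, and with a replicate block also 2.

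Genes of sprouting vessel tips were negative in all 11 tested, with a median of -1.24, where the median of all genes was 0.00428. Of the 11, 4 passed the FDR without regard to fold (3.78% of all genes did so in that direction). That number was 1 without cediranib tumor 2, combination tumor 2 or combination tumor 3, 2 without cediranib tumor 3 or combination tumor 1, and 1 with a score of epidermal markers in the model. Of the 4, Dll4, the Notch ligand of tip cells, alone passed the fold threshold too, and DESeq2 and the likelihood ratio test each called 2 of the list. Dll4 had 100 counts over the cediranib tumors and 3 over the combination tumors, a level 34.0-fold lower with an exact 95% counting interval of 11.3 to 168. Cediranib tumor 2 held most of it, 6.62 CPM against 1.30 and 1.63 CPM, and the call (edgeR FDR = 0.0212) was lost without that tumor (-3.79) or without combination tumor 1 (-4.94), 2 (-5.71) or 3 (-4.37).

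Of 15 genes of the Notch pathway, Dll4 and Mfng fell and Notch3 rose. Mfng, a glycosyltransferase that modifies Notch receptors, was low at 1.8, 4.16 and 2.11 CPM and 0.707, 0.999 and 0.743 CPM (-1.70, edgeR FDR = 0.0397). The call was lost without cediranib tumor 2 (-1.24), cediranib tumor 3 (-1.84) or combination tumor 1 (-1.60), 2 (-1.86) or 3 (-1.64). It was also lost with a score of epidermal markers in the model (-1.10) and in the fit of the 6 libraries alone (-1.70). Notch3, the Notch receptor of vessel mural cells, rose from 17.5, 22.8 and 22.4 CPM to 78.0, 43.3 and 157 CPM (2.15 ± 0.39, edgeR FDR = 0.00797). The summed level of 13 pericyte and smooth muscle markers, which include Notch3, was 190 to 422 CPM with cediranib and 203 to 370 CPM with the combination, and its part in the Notch3 result was not tested.

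**Figure D3:**
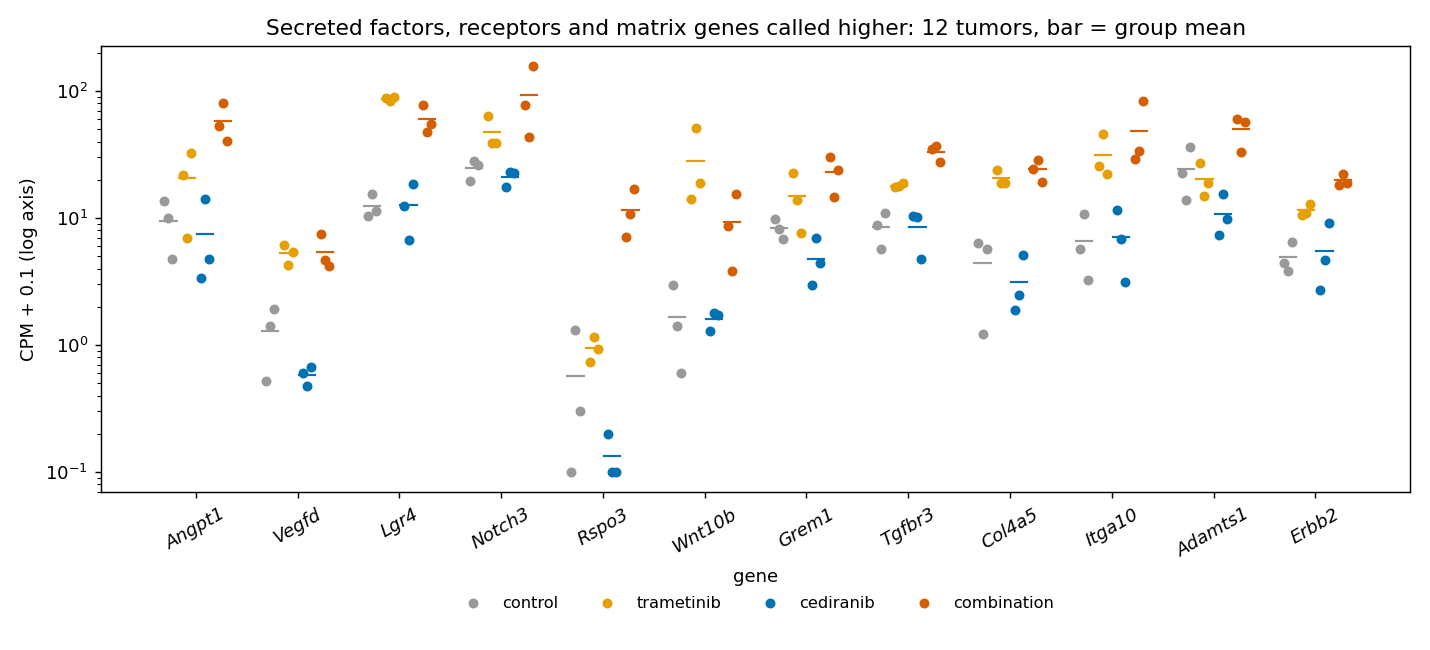
CPM plus 0.1 on a log axis (y) of 12 genes (x) called higher with the combination that encode secreted factors, receptors or matrix proteins, with points for single tumors, bars for group means and colors for the 4 groups of 3 tumors. Rspo3 stands at 6.97 to 16.7 CPM in the combination tumors and at 1.22 CPM or below in every other tumor.

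The genes of the WNT pathway that were called all rose, 3 of 31 tested, with a median of 0.26 for the list. Lgr4, a receptor for the R-spondins that amplify WNT signals, went from 12.4, 6.62 and 18.6 CPM to 77.7, 47.8 and 55.2 CPM (2.26 ± 0.31, edgeR FDR = 0.00202). Rspo3, one of those R-spondins, had 1 count over the 3 cediranib tumors and 367 over the combination tumors, at 6.97, 10.7 and 16.7 CPM. That is a 359-fold difference with an exact 95% counting interval of 64.1 to 14233 (edgeR FDR = 0.00156), and the groups were far apart. Wnt10b, a WNT ligand, went from 1.2, 1.70 and 1.63 CPM to 8.58, 3.72 and 15.3 CPM (2.60, edgeR FDR = 0.0373). Its call was lost without any 1 of the 3 cediranib tumors (2.46, 2.69 and 2.67), combination tumor 1 (2.66) or combination tumor 3 (2.01). It was also lost with a replicate block (2.63) or a score of epidermal markers in the model (2.52). Axin2, a common target of the pathway, was at 0.74 and was not called.

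In the TGF-beta and BMP pathway 2 of 34 genes rose, around a median of 0.18. Grem1, a secreted antagonist of BMPs, went from 2.90, 6.90 and 4.31 CPM to 30, 14.4 and 23.9 CPM (2.27 ± 0.43, edgeR FDR = 0.00916). Tgfbr3, the co-receptor betaglycan, went from 10.3, 10.0 and 4.69 CPM to 35.1, 37.1 and 27.4 CPM (1.99 ± 0.30, edgeR FDR = 0.00337). Neither pair of groups overlapped.

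Matrix and adhesion genes changed singly, in both directions. Itga6, the laminin receptor chain of endothelial and epithelial cells, fell from 301, 226 and 221 CPM to 52.5, 33.0 and 51.1 CPM (-2.45 ± 0.21, edgeR FDR = 0.000202). Itga10, a collagen receptor chain, rose from 11.4, 6.72 and 3.06 CPM to 29.1, 33.7 and 82.9 CPM (2.78 ± 0.57, edgeR FDR = 0.0142). Itga7, the laminin receptor chain of muscle, rose from 5.60, 4.82 and 7.75 CPM to 11.3, 15.5 and 50.6 CPM (2.09, edgeR FDR = 0.0232). These were the 3 called of 28 integrins and laminins. Itga7 was not called without cediranib tumor 1 (2.04), cediranib tumor 2 (1.95) or combination tumor 3 (1.15). The 23 tested skeletal muscle markers summed to 103 to 331 CPM with cediranib and 217 to 1118 CPM with the combination, and their part in the Itga7 value was not tested.

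Of 24 collagens, 1 rose and 1 fell. Col4a5, a chain of basement membrane collagen, went from 1.8, 2.36 and 4.98 CPM to 24.3, 28.6 and 19.2 CPM (2.97 ± 0.50, edgeR FDR = 0.00608). Col18a1, a vessel basement membrane collagen from which endostatin is cut, went from 21.5, 20.4 and 13.3 CPM to 6.46, 4.54 and 3.71 CPM (-1.91 ± 0.25, edgeR FDR = 0.00156). Col4a1 and Col4a2 were at -0.97 and -0.68 and were not called. Among 27 matrix proteases and inhibitors, Adamts1 and Timp3 rose, and Plaur fell. Adamts1, a secreted protease that binds VEGF, rose from 7.29, 15.2 and 9.67 CPM to 60.0, 33.0 and 56.5 CPM (2.21 ± 0.39, edgeR FDR = 0.00701). Timp3, a matrix-bound metalloproteinase inhibitor, rose from 36.2, 24.2 and 36.5 CPM to 106, 67.6 and 190 CPM (1.91 ± 0.36, edgeR FDR = 0.00945), and without combination tumor 3 its value was 1.43.

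Cell cycle genes other than Ccnd1 were not called. Of 18 genes of G1 cyclins and their inhibitors, Ccnd1 was the single call. None of 34 DNA replication genes and none of 30 mitosis genes was called by edgeR, with medians of 0.04 and -0.10. At an unadjusted p below 0.05, where 11.3% of all genes were higher and 11.8% lower, 3 replication genes were higher and 1 lower, and 2 mitosis genes were lower. The smallest p values in these lists belonged to Rrm2, the small subunit of ribonucleotide reductase, which went from 221, 189 and 223 CPM to 333, 333 and 294 CPM (0.60, edgeR FDR = 0.0375, under the fold threshold), and to the centromere histone Cenpa (-1.12, edgeR FDR = 0.11). Mki67 was at -0.10.

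Nucleolar genes of ribosome assembly had small falls that were shared widely. No gene of 30 was called by edgeR with the fold threshold, yet all 30 log2 fold changes were negative, with a median of -0.65, and 13 passed the FDR alone, where 3.78% of all genes did so in that direction (3.9% in the other). The groups did not overlap for 22 of the 30, with the combination lower, where 14.3% of all genes did so. Nop56, a core protein of the complexes that modify ribosomal RNA, had the smallest p, at 175, 179 and 170 CPM with cediranib and 107, 120 and 111 CPM with the combination (-0.63 ± 0.10, edgeR FDR = 0.00444). Its row overlaps several small nucleolar RNAs in its introns. Leaving out 1 tumor at a time gave 6 to 10 genes past the FDR, with 6 without cediranib tumor 1 or combination tumor 3, and the fit of the 6 libraries alone gave 8. In trametinib against control, 10 of the 30 passed the FDR in the same direction, against 3.47% of all genes.

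Other metabolic and survival lists held no called gene. Of 11 BCL2 family genes, Bcl2l1, which encodes the survival protein BCL-XL, had the smallest p at 73.9, 46.4 and 50.3 CPM against 21.5, 24.9 and 43.1 CPM (-0.93, edgeR FDR = 0.0387), under the fold threshold. Of 24 glycolysis and hypoxia genes, hexokinase 2 (Hk2) had the smallest p (-0.72, edgeR FDR = 0.0638). Of 17 cholesterol synthesis genes it was Msmo1, a sterol oxidase (-1.02, edgeR FDR = 0.246). At an unadjusted p below 0.05 (11.3% of all genes higher, 11.8% lower) the glycolysis list had 1 gene higher and 1 lower, the cholesterol list none, and the BCL2 list 1 higher and 2 lower.

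Few immune genes were called. Of 24 interferon-stimulated genes 18 were positive, with a median of 0.55, where the median of all genes was 0.00428. Ifit1, an antiviral RNA-binding protein, was called at 9.79, 11.1 and 4.88 CPM against 28.0, 43.2 and 11.1 CPM (1.68, edgeR FDR = 0.0447). It was lost without any 1 of the cediranib tumors (1.78, 1.90 and 1.40), without combination tumor 1 (1.67) or without combination tumor 2 (1.19). Masp1, a protease that starts the lectin branch of complement, was the single call of 14 complement genes (2.24, edgeR FDR = 0.0246), at 2.36 to 5.30 CPM against 11.3 to 35 CPM. It too was lost without any 1 of the cediranib tumors (2.42, 1.95 and 2.41) or combination tumor 3 (1.57). None of 17 class I presentation genes and none of 10 chemokine genes was called by edgeR's quasi-likelihood test, while its likelihood ratio test and DESeq2 each called 1 chemokine gene higher and 1 lower. At an unadjusted p below 0.05 the class I list had none, and the chemokine list had 2 higher and 2 lower. H2-M3, a class I molecule that presents formylated peptides, had the smallest p of its list (0.45, edgeR FDR = 0.262), at 0.68 without cediranib tumor 2. For the neutrophil chemokine receptor Cxcr2, the value was 3.31 at 0 to 0.300 CPM against 0.928 to 3.81 CPM (edgeR FDR = 0.0807). Cxcl12, the ligand of CXCR4, was at -0.32 (edgeR FDR = 0.562), and -0.035 without cediranib tumor 2.

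The genes with the smallest p outside these lists were of mixed function. On the lower side, Inpp4b, a phosphatase of the lipid second messengers made by PI3K, went from 49.9, 76.3 and 62.7 CPM to 5.86, 5.90 and 5.75 CPM (-3.43 ± 0.29, edgeR FDR = 0.000202). Rhbdf2, which carries the sheddase ADAM17 to the cell surface, went from 45.1, 46.7 and 39.6 CPM to 14.2, 13.0 and 14.7 CPM (-1.65 ± 0.14, edgeR FDR = 0.000202). Both groups were tight and far apart. Arhgef7, an exchange factor for RAC and CDC42, and Adgrg1, an adhesion G protein-coupled receptor, were at -1.54 ± 0.14 (edgeR FDR = 0.000202) and -1.57 ± 0.15 (edgeR FDR = 0.000311), and both came to -1.45 without cediranib tumor 1. On the higher side, Aqp5, a water channel of glands, went from 0.699, 0.378 and 0.478 CPM to 16.7, 19.2 and 9.84 CPM (4.85 ± 0.44, edgeR FDR = 0.000223). Pcdh19, a protocadherin, went from 45.5, 48.2 and 111 CPM to 499, 443 and 404 CPM (2.71 ± 0.30, edgeR FDR = 0.000751). Each combination tumor was several times the highest cediranib tumor in both genes.

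Several further genes that rose are best known from the nervous system or from cell adhesion. Nrcam, a neuronal adhesion molecule, went from 4.10, 4.54 and 2.97 CPM to 52.1, 97.9 and 115 CPM (4.51 ± 0.53, edgeR FDR = 0.000989). Tnr, the matrix protein tenascin-R, went from 0.699, 0.0946 and 0.0957 CPM to 24.9, 21 and 14.3 CPM (6.05 ± 0.75, edgeR FDR = 0.00139). Cdon, a co-receptor for hedgehog ligands, went from 2.00, 6.34 and 4.98 CPM to 54.5, 43.7 and 89.6 CPM (3.81 ± 0.47, edgeR FDR = 0.00135). All 3 were near-absent or low in cediranib tumors and clearly measured in every combination tumor. Scn2a, a sodium channel, rose by 3.34 ± 0.41 (edgeR FDR = 0.00135) from 1.24 to 2.90 CPM up to 17.2 to 25.2 CPM. Htra1, a secreted serine protease whose gene lies within the annotated span of Fgfr2 on the other strand, rose by 1.64 ± 0.20 (edgeR FDR = 0.00119), and its value was 1.48 without combination tumor 3. Sertad4 went from 1.10, 0.0946 and 0.287 CPM to 3.03, 3.45 and 6.22 CPM (3.09 ± 0.57, edgeR FDR = 0.00888).

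The genes Glp1r and F2rl3 fell from measured levels to no reads at all, and were named after their values were seen. Glp1r, the receptor of the gut hormone GLP-1, was at 4, 2.84 and 0.861 CPM with cediranib and had no count in the combination tumors, at least 8.96-fold lower when 3 counts in each library are taken as the floor. F2rl3, the thrombin receptor PAR4, was at 1.30, 0.946 and 0.478 CPM and likewise had no count, at least 3.18-fold lower. By FDR both calls were lost without cediranib tumor 1 (edgeR FDR = 0.0576 and 0.0558), and that of Glp1r also without combination tumor 1 (0.0523), 2 (0.0548) or 3 (0.0552). Intervals and floors cover counting error only.

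The effect of trametinib on cediranib-treated tumors was set beside its effect on tumors without cediranib, the comparison of the trametinib group with control, which shares no library with the first. That comparison called 126 genes higher (0.977%) and 184 lower (1.43%). Both called the same 61 genes higher, 36.7% of the genes higher with the combination and 48.4% of those higher with trametinib alone, and the same 95 genes lower, 63.3% and 51.6% of each list, and no gene was called in opposite directions. When each comparison was fitted on its own 6 libraries, 44 genes were higher and 80 lower in both, and none was opposite. Of the 166 genes called higher with the combination, 159 had a positive value with trametinib alone, and of the 150 called lower, 146 had a negative value, where 50.6% and 49.3% of all genes did so. The median log2 fold changes with trametinib alone were 1.39 and -2.08 for these lists.

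**Figure D4:**
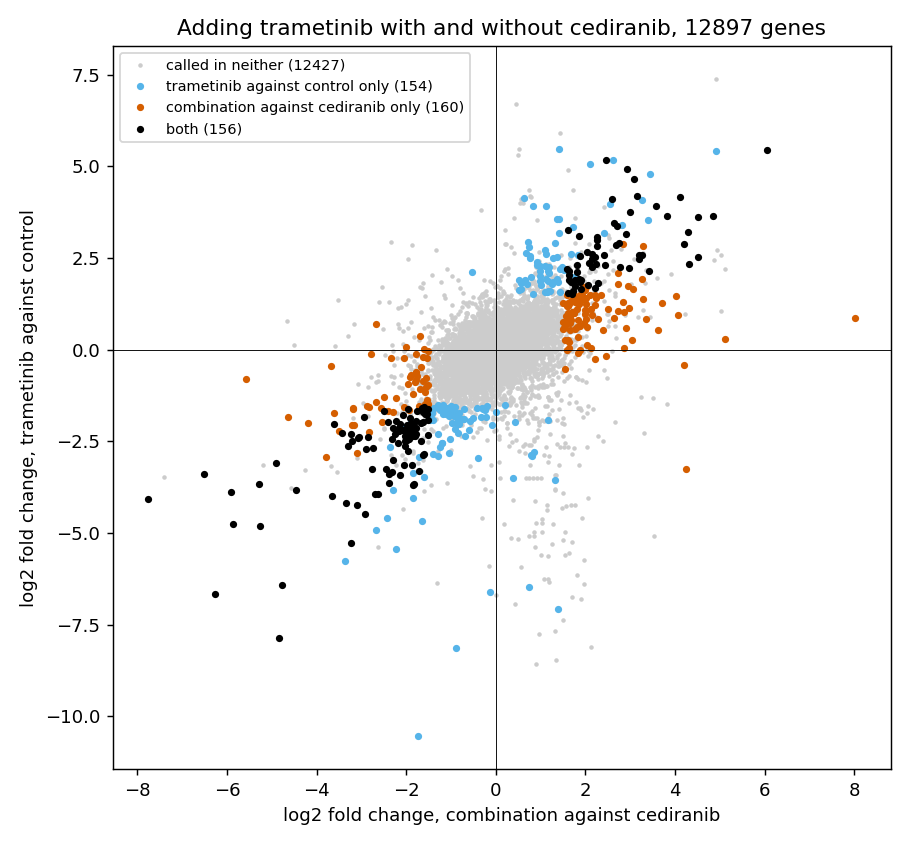
Log2 fold change of the combination against cediranib (x) and of trametinib against control (y) for 12897 genes, colored by the comparison that called them. The 156 genes called in both lie at the lower left and upper right, and none lies at the upper left or lower right.

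A test of the difference between the 2 effects called no gene (0% of 12897, edgeR, smallest FDR 0.185), while 909 genes had an unadjusted p below 0.05. DESeq2's Wald test called 28 genes and edgeR's likelihood ratio test called 28, so this count depends on the test. Among the 56 ERK-dependent genes, 18 had an unadjusted p below 0.05 for the difference, 32.1% against 7.05% of all genes, and in 17 of the 18 the difference was positive. It was positive in 45 of the 56, where 49.7% of all genes were positive. The 3 members given next had small unadjusted p values for the difference and do not stand for the 56. Among other members called lower, the difference was 1.23 for Etv4, 0.52 for Ccnd1, 0.11 for Phlda1 and -0.18 for Fosl1. Dusp6 fell by 1.85 on the log2 scale with cediranib present and by 3.70 without it, from 47.7, 46.4 and 39.0 CPM in control tumors to 4.54, 1.98 and 3.60 CPM in trametinib tumors (difference 1.84 ± 0.32, edgeR FDR = 0.185). For Egr1 the fall with trametinib alone was from 87.3, 86.2 and 88.1 CPM to 3.18, 3.26 and 5.11 CPM, a log2 fold change of -4.49 (difference 1.57 ± 0.29, edgeR FDR = 0.246). For Etv5 it was from 69.4, 76.7 and 72 CPM to 7.63, 3.84 and 5.53 CPM, a log2 fold change of -3.67 (difference 1.85 ± 0.36, edgeR FDR = 0.305). In each of these genes the 3 trametinib tumors were below the 3 combination tumors. None passed the FDR.

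Other called genes with a small unadjusted p for the difference went both ways. Crabp2, a carrier of retinoic acid, rose in both comparisons, from 2.40, 1.89 and 3.16 CPM to 12.8, 10.3 and 18.2 CPM with the combination (2.47 ± 0.31) and by a log2 value of 5.18 with trametinib alone, to 48.4, 53.1 and 68.1 CPM (difference -2.72 ± 0.45, edgeR FDR = 0.185). Rspo3 stood at 0.635, 1.05 and 0.837 CPM in the trametinib tumors and at 0, 1.22 and 0.202 CPM in the control tumors (difference edgeR FDR = 0.42). Adamts1 stood at 27.1, 14.9 and 18.7 CPM and at 22.7, 13.8 and 36 CPM in the same order, a log2 fold change of -0.25 (difference 2.46 ± 0.53, edgeR FDR = 0.433). For Scn2a the value with trametinib alone was 0.83 (difference 2.51 ± 0.55, edgeR FDR = 0.433).

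The tissue make-up of the 6 tumors differed in ways that move with some of these results. Keratins had 37 tested members with a median of 0.80, and their 1 call was Krt18, a keratin of simple epithelia, which fell (-3.60, edgeR FDR = 0.00216). Krt14 and Krt5, the keratins of the basal epidermis, measured 1694, 2.36 and 821 CPM and 942, 2.36 and 702 CPM in the cediranib tumors, and 1486, 2340.1 and 1499 CPM and 1143, 1580 and 1228 CPM in the combination tumors. The lone low library was cediranib tumor 2 in both genes, and neither was called (1.08, edgeR FDR = 0.739 and 1.26, edgeR FDR = 0.7). None of 24 epidermal markers was called by edgeR's quasi-likelihood test, with 1 higher and 1 lower at an unadjusted p below 0.05 and a median of 1.03. DESeq2, the likelihood ratio test and the fit with a replicate block each called 1 of them lower. Without cediranib tumor 2 the keratin median was 0.24, the epidermal median 0.47, Krt14 0.50 and Krt5 0.68. Without cediranib tumor 3, 16 keratins and 10 of 14 hair follicle genes were called higher, against 0 and 1 with all libraries. The 1 was Dlx3 (2.65, edgeR FDR = 0.00888).

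Red cell transcripts had lower sums in the combination tumors, at 17.6, 15.6 and 19.9 CPM summed over 6 genes against 58.5, 571 and 65.2 CPM, with a list median of -3.39 that was -1.33 without cediranib tumor 2 and -1.06 when the epidermal score was fitted. No red cell gene was called by edgeR's quasi-likelihood test (4 lower at an unadjusted p below 0.05), 4 were called lower by its likelihood ratio test, 3 by DESeq2 and 1 in the fit of the 6 libraries alone. Macrophage markers summed to 370, 472 and 303 CPM and 260, 330 and 190 CPM, with a median of -0.82 (-0.40 without cediranib tumor 2). None of 17 was called by edgeR's quasi-likelihood or likelihood ratio test or by DESeq2 (1 higher and 2 lower at an unadjusted p below 0.05), and 1 was called lower without combination tumor 3. Of 13 fibroblast markers Fbln1 rose (1.72, edgeR FDR = 0.0273) and Abca8a fell (-2.68, edgeR FDR = 0.0278), and of 13 pericyte and smooth muscle markers Notch3 rose and Abcc9 fell (-2.79, edgeR FDR = 0.0427). The Abcc9 call was lost without any 1 of the 6 libraries (-2.40 to -3.52), that of Fbln1 without any but combination tumor 3 (1.44 to 1.88), and that of Abca8a without any but cediranib tumor 3 (-2.24 to -3.01). With the epidermal score in the model none of these 3 was called. Fibroblast markers summed to 893 to 985 CPM with cediranib and 1250 to 1344 CPM with the combination. Of 6 Schwann cell markers the call was Egr2, already described. No marker of skeletal muscle (23 tested), neutrophils (4), T and NK cells (2), B cells (1) or fat (7) was called by edgeR's quasi-likelihood test, with 1, 3, 0, 0 and 0 higher at an unadjusted p below 0.05 and none lower. The likelihood ratio test and DESeq2 each called 1 neutrophil marker higher, and DESeq2 called 1 skeletal muscle marker lower. The part of these shifts in any single result was not tested, beyond the model with the epidermal score, in which 258 genes were called and 206 of the 316 calls remained. Without cediranib tumor 2, 243 genes were called, also with 206 of the 316.

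**Figure D5:**
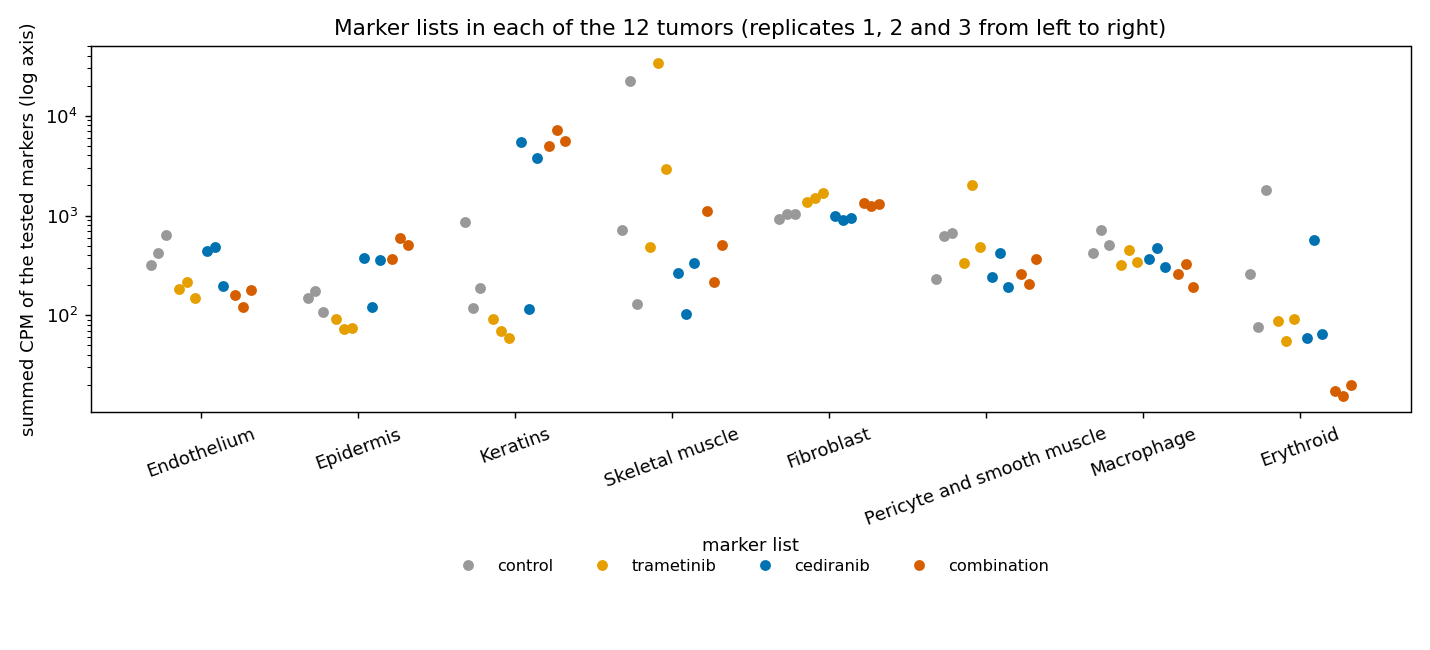
Summed CPM on a log axis (y) of the tested markers of 8 lists (x) in each tumor, with replicates 1 to 3 of a group from left to right and colors for the 4 groups. Keratins are low in cediranib tumor 2 at 116 CPM and lie between 3772 and 7160 CPM in the other tumors given cediranib, with or without trametinib.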

How the data were processed

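The authors extracted RNA from 12 frozen tumors, made libraries with a kit that captures coding exons, and sequenced 50-base paired reads. Per the submitters' processing notes, bcl2fastq 1.8.4, STAR 2.7.1a, build GRCm38 and featureCounts 1.6.0 were used. The authors deposited raw read counts per gene, with no normalization. The source methods describe the RNA as degraded. No source read here states the strand setting of the counting. Reads of overlapping and antisense genes therefore cannot be separated.

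Counts of 54232 genes were analysed in R 4.3.3. Genes passed edgeR's filter (at least 10 counts scaled to library size in at least 3 libraries, 15 in total), and 99.8% of counts fell on those tested. All 12 libraries were fitted together with edgeR 4.0.16 (TMM normalization, quasi-likelihood test), which shares 1 estimate of spread. Contrasts were combination against cediranib, trametinib against control, and their difference. SE is the log2 fold change divided by the root of F. Fold changes are on the log2 scale. The edgeR quasi-likelihood fit was tested on simulated counts with known changes, and the other steps were not. Alternatives were DESeq2 1.42.0, the likelihood ratio test, other normalizations, no filter, FDR alone, the 6 libraries alone, a replicate block, an epidermal score (mean log2 CPM of the tested epidermal markers, prior count 2), and leaving out each library. Counting intervals are exact (Clopper-Pearson, confidence level 0.95).

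Named genes were the 8 protein coding genes with the smallest p in each direction, up to 4 called members of each pathway list (or the member with the smallest p where none was called), a set of 28 genes always given, and up to 6 called genes with the smallest p for the difference. The members, lists and rule were chosen with earlier results of these data known. GENCODE M21 supplied biotypes and overlaps, with 54079 of 54232 identifiers found and 46609 at the same start and end. It is not the stated annotation of the counting. Some genes are not reported here.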

Additional observations from a re-analysis of the deposited data

How the results depend on the processing

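For the combination against cediranib, 316 genes were called, and the count was 397 with DESeq2, 442 with the likelihood ratio test, 312 with RLE size factors, 325 with library totals alone and 288 with the 6 libraries alone. Library totals alone gave 203 higher and 122 lower genes (62.5% higher against 52.5%) and moved the median of all genes to 0.119. Without a filter on low counts 637 genes were called, and by FDR alone 991. Leaving out 1 library gave 193 to 281, with 193 without cediranib tumor 1, of which 177 were among the 316. For trametinib against control, 310 genes were called, 687 without the filter, 789 by FDR alone and 235 to 288 with 1 library left out. For the difference of the effects, 0 genes were called, 28 with DESeq2, 28 with the likelihood ratio test, 261 without the filter, and 0 to 1 with 1 library left out, the 1 without cediranib tumor 3. The cause of these shifts was not tested, beyond the larger number of genes tested without the filter and the looser rule of FDR alone.

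The labels number the tumors 1 to 3 in each group. With a replicate block the counts were 277, 301 and 0. Same-numbered cediranib and combination tumors did not deviate together (correlations -0.084, 0.0050 and 0.021), and trametinib and control tumors did so for 2 of 3 numbers (0.173, 0.356 and -0.036), so not every sample correlated best with its own number and the numbers were not taken as pairs.

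Of 54 named genes called, 54 were called with DESeq2, the likelihood ratio test and RLE size factors, 51 with library totals alone and with the replicate block, 47 with the 6 libraries alone, 43 with the epidermal score, and 40 to 45 with 1 library left out. Lost with the epidermal score were, among others, Dll4, Dusp9, Fosl1, Ifit1, Itga7, Klf4, Masp1, Mfng, Plaur and Wnt10b. No called named gene changed sign. Signs turned for 6 named genes that were not called. With the epidermal score these were Spry2 (-0.061), Cxcl12 (0.0058), Krt14 (-0.65) and Krt5 (-0.47), and with the block Spry2 (-0.083). Over the 6 fits with 1 library left out, Spry2 ranged from -0.49 to 0.31, Etv1 from -0.57 to 1.2 and Mapk3 from -0.086 to 0.21. The lowest of these were without combination tumor 3, combination tumor 2 and cediranib tumor 1. Depth limits genes near 3 counts per library. With 3 tumors a group, a gene that was not called is not shown to be unchanged.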

Other observations

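Genes of the circadian clock and genes known to be induced by glucocorticoids were looked up after the called genes had been seen, so the counts here carry no test of the lists. Of 20 clock genes, 17 were tested, 4 rose where 1.29% of all genes did, none fell, and the median log2 fold change of the combination against cediranib was 0.83. Hlf and Dbp, transcription factors whose levels follow the time of day, went from 1.90, 1.89 and 1.24 CPM to 32.7, 26.7 and 34.1 CPM (4.21, edgeR FDR = 0.00549) and from 3.80, 3.50 and 2.30 CPM to 12.6, 9.08 and 14.4 CPM (1.91, edgeR FDR = 0.0142). Per1, a repressor of the clock, went from 25.4, 24.5 and 32.6 CPM to 146, 130 and 161 CPM (2.40, edgeR FDR = 0.0234), and the deubiquitinase Usp2 had a log2 fold change of 1.98 (edgeR FDR = 0.0359). In all 4 genes every combination tumor was above every cediranib tumor. Hlf and Dbp were called in each fit with 1 library left out, Per1 in the fit without combination tumor 2 but in none of the others (2.32 to 2.55), and Usp2 in the fit without combination tumor 1 but in none of the others (1.41 to 2.13). With the epidermal score in the model, Dbp (1.76) and Per1 (1.88) were not called. Nr1d1, Nr1d2 and Tef passed the FDR with log2 fold changes of 0.83, 1.00 and 1.2, under the fold threshold. The activators Arntl and Clock were at -0.51 and -0.36 and did not pass. With trametinib alone against control, Hlf and Dbp were called (2.87 and 1.66), and Per1 was at 0.55 (edgeR FDR = 0.631). The hour of tumor collection was not given in the sources used here, and its part in these values was not tested.

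Of 16 glucocorticoid-induced genes, 13 were tested and 4 rose (1.29% of all genes), Per1 among them, with a median of 0.81. Tsc22d3, which encodes the anti-inflammatory protein GILZ, went from 26.4, 12.8 and 27.3 CPM to 63.4, 49.3 and 76.6 CPM (1.51, edgeR FDR = 0.0245). Klf9 went from 4.10, 7.94 and 3.06 CPM to 15.8, 15.3 and 24.4 CPM (1.87, edgeR FDR = 0.00888), and Zbtb16 had a log2 fold change of 3.03 (edgeR FDR = 0.0278). Tsc22d3 was not called without cediranib tumor 1 (1.66), cediranib tumor 2 (1.23), combination tumor 1 (1.52) or combination tumor 3 (1.35), nor Zbtb16 without cediranib tumor 2 (2.72), cediranib tumor 3 (2.81) or combination tumor 3 (1.84). With the epidermal score in the model neither Tsc22d3 (1.09) nor Zbtb16 (2.67) was called. Fkbp5, a further gene of the list, was at -0.34 (edgeR FDR = 0.577), and the metallothioneins Mt1 and Mt2 were at -0.40 and 0.13.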
